A study of Mus musculus with 6 samples.

Results

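The cytosolic ribosomal protein genes of the mouse were described in ventricles of newborn CD-1 hearts. Members were the protein-coding genes whose symbol is Rpl or Rps followed by a number and at most a short suffix, together with the stalk genes Rplp0, Rplp1 and Rplp2 and the gene Rpsa. This rule gave 83 of the 39171 genes in the table, of which 51 encode proteins of the large subunit (Rpl) and 32 encode proteins of the small subunit (Rps). Another 5 genes carry such a symbol but are annotated as pseudogenes, and they were not counted as members. Polyadenylated RNA was sequenced from ventricles alone of wild-type, non-manipulated mice aged 1 day (P1, 3 libraries) and 2 days (P2, 3 libraries). No treatment, transgene or other genotype was part of the comparison, and the labels give neither sex, litter nor whether ventricles were pooled. Values are FPKM, that is, fragments normalised for transcript length and for the number of mapped fragments, so levels of different genes can be set against each other per unit of length.

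Ribosomal proteins surround the ribosomal RNA of the subunits, and most are needed in equal number in every ribosome. Their mRNAs belong to the TOP class (terminal oligopyrimidine), which begin with a C followed by a run of pyrimidines at the transcription start. Through this run the kinase complex mTORC1 and the RNA-binding protein Larp1 set how strongly these mRNAs are translated, so their RNA level and their translation can be regulated apart. A few ribosomal proteins have a paralog with a narrower tissue range. Rpl3l takes the place of Rpl3 in ribosomes of mouse heart and skeletal muscle as the animal matures, and Rpl10l and Rpl39l are known from mouse male germ cells.

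The start of the coding sequence is shown for 3 parent and paralog pairs because bases that differ let reads tell the genes apart. Coding positions 1 to 60, all exonic, were taken from the GENCODE M21 transcripts (build GRCm38) and compared position by position without gaps, and capitals mark the bases that differ within a pair. Rpl3 lies on chromosome 15, Rpl3l on 17, Rpl22 on 4, Rpl22l1 and Rps27 on 3, and Rps27l on 9.
Rpl3: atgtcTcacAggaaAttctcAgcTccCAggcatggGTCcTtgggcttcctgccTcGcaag
Rpl3l: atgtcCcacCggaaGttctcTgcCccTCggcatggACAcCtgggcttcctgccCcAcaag
Rpl22: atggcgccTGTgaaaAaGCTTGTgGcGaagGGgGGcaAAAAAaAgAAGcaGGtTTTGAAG
Rpl22l1: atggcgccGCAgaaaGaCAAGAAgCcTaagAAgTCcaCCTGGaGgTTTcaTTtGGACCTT
Rps27: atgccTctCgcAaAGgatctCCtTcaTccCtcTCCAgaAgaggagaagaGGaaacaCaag
Rps27l: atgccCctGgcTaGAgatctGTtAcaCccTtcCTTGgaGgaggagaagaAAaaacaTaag
Rpl3 and Rpl3l differed at 13 of these 60 positions, Rps27 and Rps27l at 18, and Rpl22 and Rpl22l1 at 34. Rpl22 has 128 residues and Rpl22l1 122, so without gaps bases that do not correspond may be set against each other. The 34 is therefore not a measure of how far this pair differs. Over the whole translated sequence, Rpl3l was identical to Rpl3 at 77.1% of aligned residues and Rpl22l1 to Rpl22 at 73.8%. Rpl7l1 was the most distant paralog, at 44.7% of Rpl7. Rps27l differed from Rps27 at 3 of 84 residues, Rpl10l from Rpl10 at 3 of 214, and Rpl39l from Rpl39 at 3 of 51. Rpl36al and Rps27rt, which fall outside the symbol rule, encoded the same protein as Rpl36a and Rps27.

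The region around the annotated start is shown for 4 genes that the comparisons turn on, since the pyrimidine run sits there. Each line holds 40 bases of RefSeq promoter sequence (build GRCm38.p6), 20 before the start and 20 from it, 5′ to 3′ on the gene's strand, and capitals mark the longest stretch of C and T that opens with a C within 5 bases of the start. The windows are chr3:90213629-90213668 (minus strand) for Rps27, chr3:28805488-28805527 (plus) for Rpl22l1, chr17:24720043-24720082 (plus) for Rps2 and chr17:24727806-24727845 (plus) for Rpl3l.
Rps27: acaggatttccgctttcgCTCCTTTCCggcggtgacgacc
Rpl22l1: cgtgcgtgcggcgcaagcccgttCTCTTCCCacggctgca
Rps2: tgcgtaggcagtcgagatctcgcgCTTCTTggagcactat
Rpl3l: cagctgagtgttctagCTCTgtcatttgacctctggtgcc
The run was 9 bases in Rps27, 8 in Rpl22l1, 6 in Rps2 and 4 in Rpl3l. Its median was 3 bases over member promoters and 2 over all promoters, so all 4 genes shown lay above the member median. Of the members, 63 had a RefSeq promoter. A run of at least 5 bases opening within 5 bases of the start was present in 28 of them (44.4%) and in 18.5% of the 27025 promoters in all. With the C required at the annotated start itself, the shares were 19% and 2.49%. Over the 300-base promoters read on both strands, the letters CCGGAAG were found in 39.7% of member promoters against 9.12% of all, GGGCGG in 60.3% against 35.9%, and TATAAA in 9.52% against 14.2%. These are matches of letters and do not show binding, and the RefSeq start need not be the one used in the heart.

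Across the libraries, 13355 to 13429 genes reached 1 FPKM. FPKM summed over all genes to 716968 to 754510 in P1 and to 807632 to 858436 in P2, and genes of the mitochondrial chromosome made up 30.8% to 39.5% of that sum. Read counts were not available, so the depth behind each value is unknown. Of the table, 14900 genes were listed at 0 in every library, and an exact 0 can be a failed estimate: the heart muscle genes Myh6 and Tnnt2 were listed at 0, Myh6 in all 6 libraries and Tnnt2 in all 3 of P1. The remaining heart muscle markers were abundant. Skeletal muscle markers (6 genes) summed to 0.595 to 1.199 FPKM per library, with Myod1 at 0, lymphocyte markers (3 genes) to 1.04 to 2.01 FPKM, and male germ cell markers (4 genes) to at most 0.313 FPKM, with 1 of them at 0.

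Ribosomal protein genes were among the more abundant transcripts of the ventricle. Their median level over the 6 libraries was 265 FPKM (quartiles 196 and 415), and 77 of the 83 had a mean of at least 100 FPKM, a level that 814 genes reached in all. Of the 100 most abundant genes, 5 were members, and of the 500 most abundant, 71. The large subunit genes had a median of 248 FPKM and the small subunit genes 282 FPKM. Between 100 and 1000 FPKM lay 76 members, so their listed levels were not equal although most of the proteins are held in equal number. The part of read sharing with near-identical copies in these differences was not tested. Level and length of the longest annotated transcript had a Spearman rho of -0.33 over the 81 tested members, a description across genes that share libraries and a length term.

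The acidic stalk proteins recruit the GTPases of translation to the large subunit, and their genes differed in level. As listed, Rplp1 was the highest member, at 1073, 1216 and 1318 FPKM in P1 and 1282.5, 1479 and 1316.5 FPKM in P2. Near-identical copies held 6.36% of the FPKM of gene and copies for Rplp1 and 50.6% for Rps29, the next highest member. How reads were divided between genes and copies is not known, so this order is uncertain. The core stalk gene Rplp0 stood at 526, 563 and 548 FPKM in P1 and 527, 526 and 518 FPKM in P2. Rplp2, the partner of Rplp1, was lower, at 193, 211 and 219 FPKM in P1 and 175, 206 and 199 FPKM in P2. Rplp1 was thus above Rplp2 in every library, and for all 3 stalk genes the ages overlapped.

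Of the small subunit genes, Rps29 and Rps9 were highest as listed, without near-identical copies. Rps29, a small zinc-binding protein, was at 801, 896 and 828 FPKM in P1 and 852, 955 and 904 FPKM in P2. Rps9, a small subunit protein near the mRNA entry, was at 763, 826 and 778 FPKM in P1 and 739, 754 and 767 FPKM in P2. Both overlapped between the ages. Rps15 averaged 668 FPKM over the libraries and Rpl41, the shortest ribosomal protein, 732 FPKM. Rpsa, a small subunit protein also known as a laminin receptor, averaged 242 ± 4.72 FPKM in P1 and 253 ± 9.04 FPKM in P2 (SD, n = 3).

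The low end was made up of paralogs, with 1 exception. Rpl29, a non-essential large subunit protein in mouse, was at 45.2, 44.1 and 48.3 FPKM in P1 and 40.6, 43.6 and 41.9 FPKM in P2. Near-identical copies of Rpl29 together held 70.8% of the FPKM of gene and copies, and the part of read sharing in its low level was not tested. The paralogs Rpl22l1, Rpl7l1, Rpl3l and Rpl39l had means of 85.0, 18.2, 6.32 and 0.139 FPKM. Rpl10l was listed at 0 in all libraries.

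**Figure D1:**
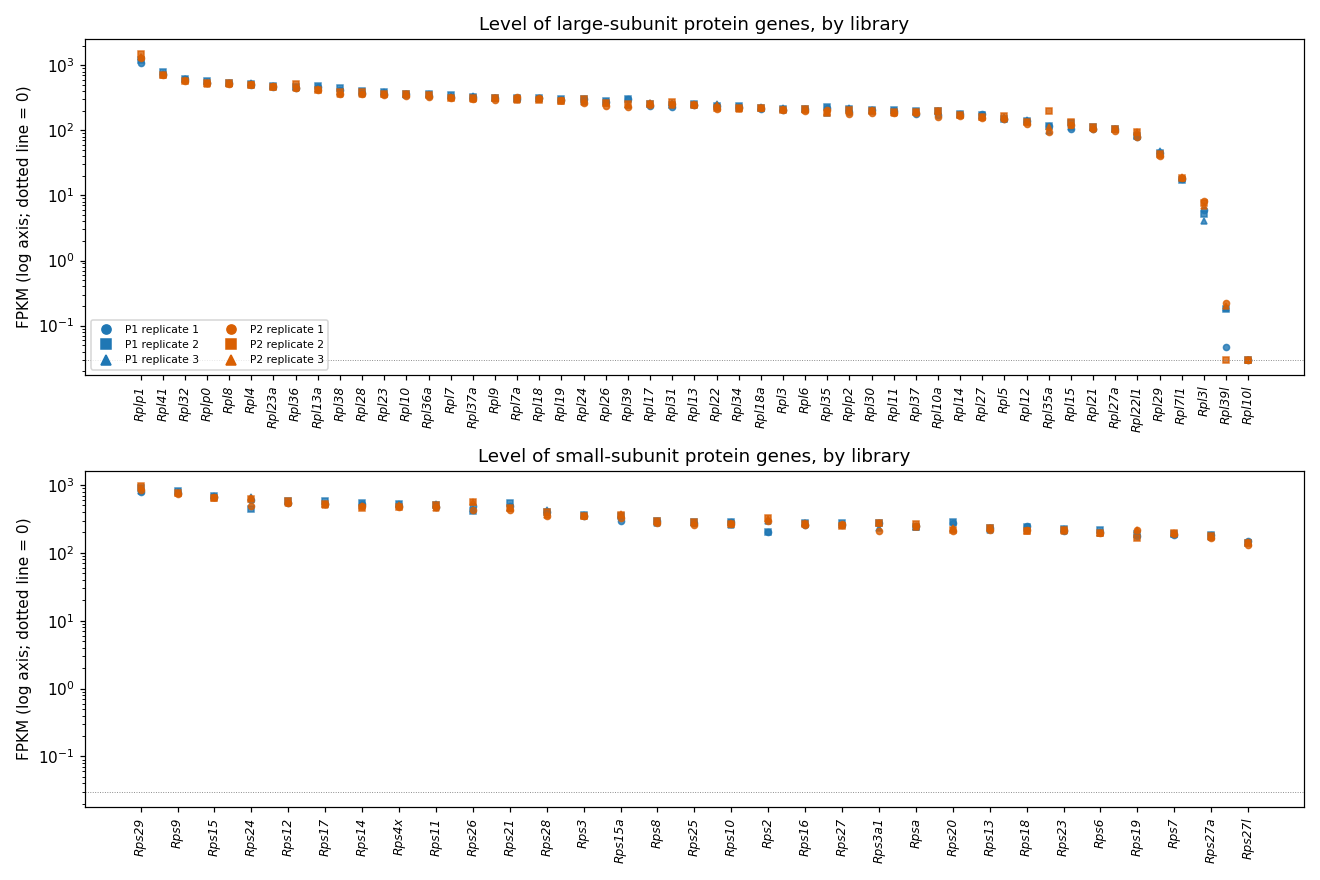
Level of 82 of the 83 ribosomal protein genes in each library, in FPKM on a log axis, with large subunit genes above and small subunit genes below, ordered by mean. Circles, squares and triangles are replicates 1, 2 and 3, blue is P1 and orange P2, and values listed at 0 sit on the dotted line. Most genes lie between 100 and 1000 FPKM, and Rpl7l1, Rpl3l, Rpl39l and Rpl10l fall far below.

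The design asks what differs between ventricles at 1 and at 2 days after birth, and none of the tested ribosomal protein genes passed the test. Each gene was compared with limma on log2(FPKM + 1), a scale that understates the change of low genes, and p-values were adjusted with the Benjamini-Hochberg method over the 13624 genes that averaged 1 FPKM or more. Of the 83 members, 81 were tested (Rpl10l and Rpl39l were too low), and 0 had an adjusted p under 0.05, against 22 of all tested genes (0.161%). At an unadjusted p under 0.05, 13 members were lower in P2 (7.89% of all genes were) and 2 were higher (10.7% of all genes were). These counts were not stable. With 1 library left out, 2 to 10 members were lower and 1 to 4 higher, and without P2 replicate 1 it was 2 lower and 4 higher. Nothing in the labels shows that replicates came from separate animals or litters, so p-values measure the spread between these libraries, which may be technical.

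The estimates of the members nonetheless lay close together and mostly below 0. Point estimates were lower in P2 for 62 of 81 members, compared with 45.3% of all tested genes, and the median log2 change was -0.04 for members, 0.01 for all tested genes and 0.02 for genes of at least 100 FPKM. Both subunits had medians of this size, -0.04 over 49 large subunit genes (38 lower) and -0.04 over 32 small subunit genes (24 lower). In 18 members all P2 libraries lay below all P1 libraries (10.6% of all genes), and in 3 all lay above (14.4%). The values of 1 library apiece varied little: in 61 tested members the highest library was less than 1.2 times the lowest, and the median residual SD was 0.054 on the log2 scale, against 0.083 for all tested genes and 0.070 for those of at least 100 FPKM. The median deviation of the members from their own means was 0.0006, 0.05 and 0.01 in P1 replicates 1, 2 and 3, and -0.06, -0.003 and -0.02 in P2 replicates 1, 2 and 3, so the shift between the ages was of the size of the distance between libraries of 1 age.

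The scale on which libraries were compared changed this count. With every library set to the same FPKM sum, 39 of 81 members passed an adjusted p under 0.05 as lower in P2 (limma, Benjamini-Hochberg), where 17.6% of all genes did. On that scale the median of all genes itself moved to -0.14 and that of the members to -0.21, a distance of -0.07 from all genes, compared with -0.05 on the deposited scale. As a share of the FPKM sum, members made up 3.59% ± 0.039 in P1 and 3.13% ± 0.149 in P2 (SD, n = 3). Mitochondrial genes held 32.5% ± 1.89 of that sum in P1 and 37.1% ± 3.11 in P2, and with them left out the share of the members was 5.32% ± 0.130 and 4.98% ± 0.0654. Their part in the difference between the scales was not tested.

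The genes with the smallest p-values among the lower estimates were core proteins, not -like paralogs, as were 77 of the 81 tested members. Choice by p favours genes with steady values, and all but Rps18 (residual SD 0.066, member median 0.054) had them. Rpl37a, a zinc-binding large subunit protein, was at 329, 329 and 334 FPKM in P1 and 304, 310.25 and 305 FPKM in P2. The ages did not overlap, with a log2 change of -0.11 ± 0.03 (SE), which limma with Benjamini-Hochberg adjustment placed at an adjusted p of 0.174. Rpl12, a protein at the base of the stalk, was at 139, 140.2 and 142 FPKM in P1 and 125, 134 and 132 FPKM in P2, again with no overlap. Like Rpl12, Rpl27 and Rps18 lay lower in all P2 libraries, and Rpl27, Rps18 and Rpl12 had log2 changes of -0.11 ± 0.04, -0.15 ± 0.05 and -0.10 ± 0.04 (limma, adjusted p = 0.210, 0.219 and 0.229).

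A few genes named for their role or size, after their values were seen, had changes of the same small order. Rpl5 and Rpl11, which with 5S ribosomal RNA form the particle that can bind Mdm2 and so stabilise p53, had log2 changes of 0.02 ± 0.05 and -0.07 ± 0.04. The estimate for Rpl5 fell below 0 with equal FPKM sums (-0.15) and with quantile normalization (-0.001). Rps6, the small subunit protein phosphorylated by S6 kinases, was at 202, 217 and 199.6 FPKM in P1 and 197, 195 and 198 FPKM in P2, so that the ages did not overlap. Rps20 had the lowest estimate of all tested members, -0.24 ± 0.09 (adjusted p = 0.248 in limma with Benjamini-Hochberg adjustment), at 271, 285 and 228 FPKM in P1 and 212, 219 and 232 FPKM in P2, with overlap between the ages.

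**Figure D2:**
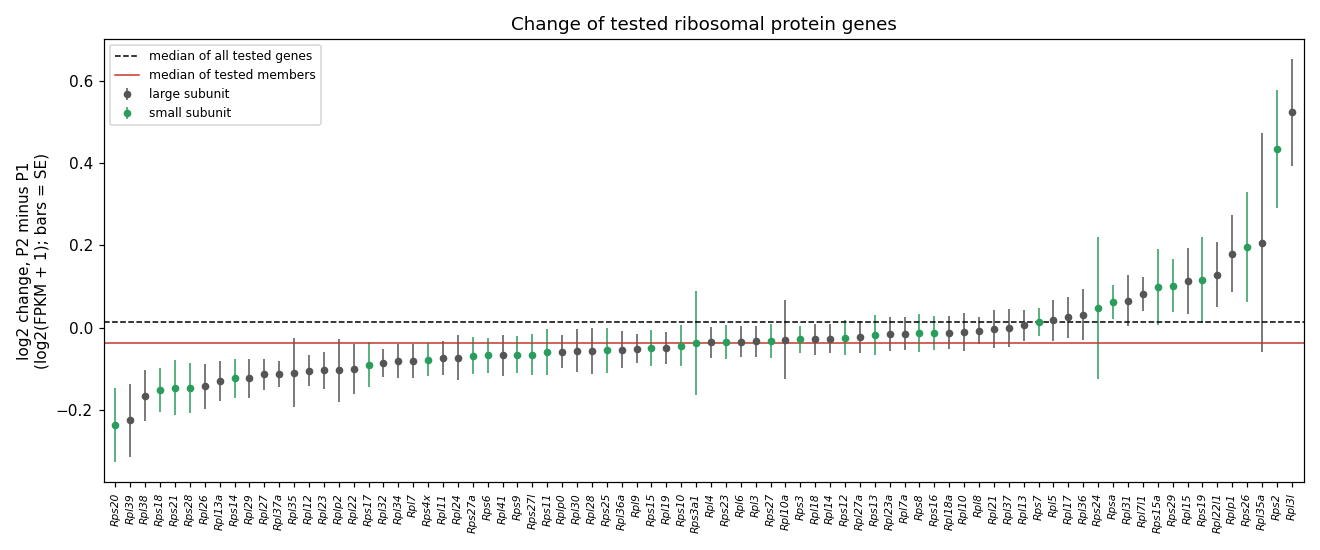
Log2 change from P1 to P2 of 80 of the 81 tested ribosomal protein genes on log2(FPKM + 1), ordered by size, with bars for the standard error from limma. Grey points are large subunit genes, green points small subunit genes, the red line is the median of the members (-0.04) and the dashed line that of all tested genes (0.01). Most points lie just below 0, and Rps2 and Rpl3l stand at the upper end.

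Rpl3l, the striated muscle paralog of Rpl3, had the highest estimate and the smallest p of all members. It was at 5.93, 5.15 and 4.02 FPKM in P1 and 8.28, 7.72 and 6.84 FPKM in P2, so every P2 library lay above every P1 library. The log2 change was 0.52 ± 0.13 (SE), which did not pass the adjustment over all genes (adjusted p = 0.150 in limma with Benjamini-Hochberg adjustment). Over all alternatives the log2 change stayed between 0.38 and 0.63 and the adjusted p between 0.0853 and 0.307. The parent Rpl3 was at 204, 211 and 218 FPKM in P1 and 206, 204 and 209 FPKM in P2 and overlapped between the ages, with a log2 change of -0.03 ± 0.04. Rpl3l lies on chr17:24727820-24736143 (plus strand) and Rpl3 on chr15:80077791-80091868 (minus strand) in GRCm38, and no near-identical copy of Rpl3l was found. Rpl3 had 16 such copies, which held 21.9% of the FPKM of gene and copies. The ratio and share of the pair given next leave these copies out.

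Set against each other within a library, the log2 ratio of Rpl3l to Rpl3, computed on FPKM + 1, was -5.15 ± 0.28 in P1 and -4.59 ± 0.14 in P2 (SD, n = 3), a difference of 0.56. On FPKM with nothing added, Rpl3l made up 2.34% ± 0.508 of the summed FPKM of the pair in P1 and 3.56% ± 0.357 in P2. All 3 P2 ratios exceeded all 3 P1 ratios, and the two-sided exact permutation test gave p = 0.10, the smallest that 3 against 3 libraries allow (0.175 adjusted over 7 ratios). In bulk tissue, a change in the number of cells of a type and a change in RNA per cell cannot be told apart. Of the 7 tested heart muscle markers other than Tnnt2, which was listed at 0 in P1, 6 had higher estimates in P2. The median log2 change over the 7 was 0.03. Of all 13624 tested genes, 7458 were higher, with a median of 0.01. With Tnnt2 counted, 4 of the 8 tested markers had all P2 libraries above all P1 libraries, against 14.4% of all tested genes. Skeletal muscle markers were at or near 0 in both ages, as given above.

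Rpl7l1 and Rpl22l1 also stood higher against their parents in P2. Rpl7l1, a Rpl7-like protein, was at 17.6, 17.0 and 18.5 FPKM in P1 and 18.7, 18.6 and 19.1 FPKM in P2, and its ratio to Rpl7 differed by 0.16 on the log2 scale, with no overlap. Rpl22l1, which in mouse can stand in for Rpl22, was at 79.3, 82.6 and 81.0 FPKM in P1 and 78.3, 95.8 and 92.8 FPKM in P2. Rpl22 was at 234, 239 and 251 FPKM in P1 and 213, 219 and 243 FPKM in P2. Although both genes overlapped between the ages, their log2 ratio did not, at -1.56 ± 0.05 in P1 and -1.33 ± 0.13 in P2. For each of these ratios the two-sided exact permutation test gave p = 0.10, again the smallest possible (0.175 adjusted). With equal FPKM sums the levels of Rpl7l1 and Rpl22l1 were lower in P2, with log2 changes of -0.08 and -0.04.

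The other pairs showed no separation in favour of the paralog. Rps27l, a p53 target, was at 145 ± 5.35 FPKM in P1 and 138 ± 6.36 FPKM in P2, and its log2 ratio to Rps27 differed by -0.03 (exact permutation test, p = 0.60). The ratio of Rpl36al to Rpl36a differed by 0.11 (exact permutation test, p = 0.20), and that of Rps4l, annotated as a transcribed pseudogene on chromosome 6, to the X-linked Rps4x by 0.13 (exact permutation test, p = 0.40). Rps27rt, on chromosome 9, was at 809, 813 and 780 FPKM in P1 and 757, 733 and 765 FPKM in P2, above Rps27 itself, at 259, 272 and 260 FPKM in P1 and 264, 249 and 260 FPKM in P2. Over the aligned coding sequence the 2 genes were 100% identical, and the exonic lengths were 374 bases for Rps27rt and 1043 for Rps27. The part of read sharing and of length in these levels and their ratio was not tested. All 3 P2 ratios of Rps27rt to Rps27 lay below the P1 ratios, with a difference of -0.06 (exact permutation test, p = 0.10). Over the 6 libraries the log2 ratio varied least for Rps27rt and Rps27, with an SD of 0.04, and most for Rpl3l and Rpl3, with an SD of 0.36.

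The germ cell paralogs were listed at or near 0. Rpl39l was listed at 0.0475, 0.179 and 0.184 FPKM in P1 and at 0.226, 0 and 0.200 FPKM in P2, while Rpl39 was at 297, 307 and 247 FPKM in P1 and 229, 252 and 244 FPKM in P2. Rpl10l was listed at 0 throughout, while the X-linked Rpl10, a late-joining large subunit protein, averaged 356 ± 9.28 FPKM in P1 and 354 ± 15.3 FPKM in P2. No ratio was computed for either.

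**Figure D3:**
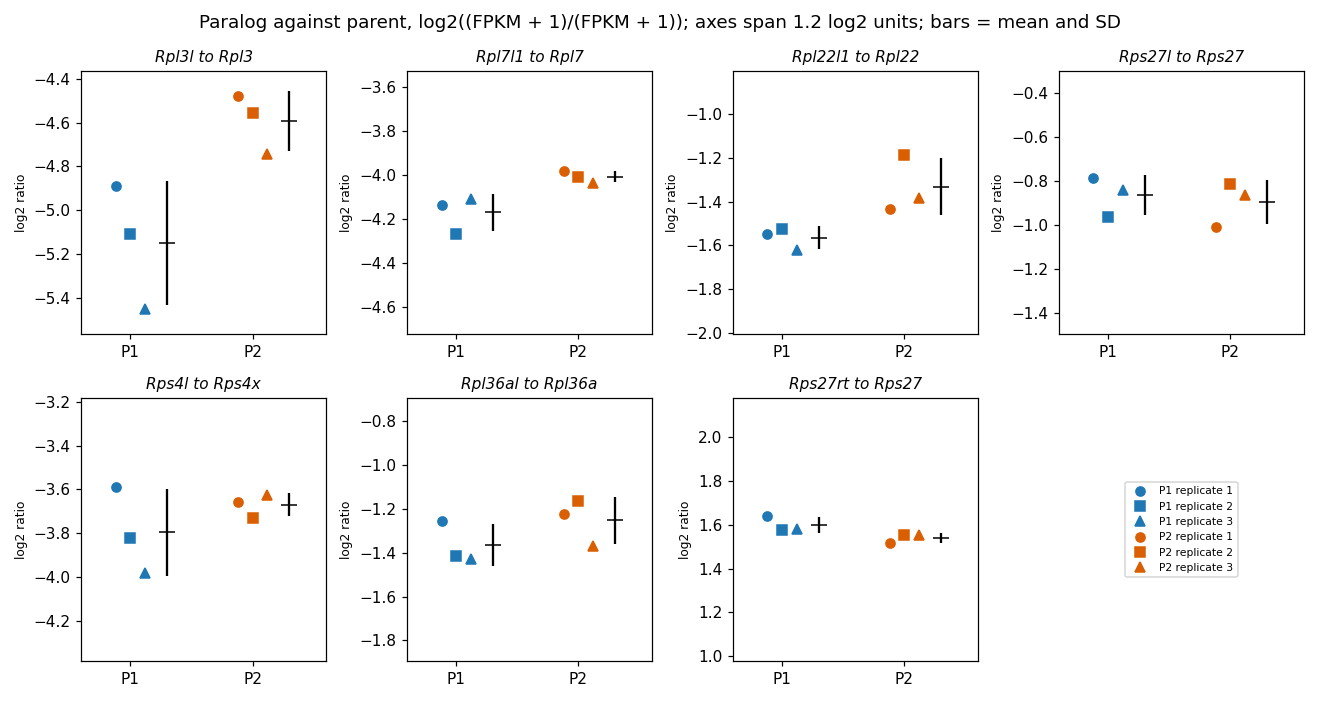
Log2 ratio of each of 7 paralogs to its parent gene by library, computed on FPKM + 1, with P1 in blue and P2 in orange, symbols for replicates and bars for the mean and SD. Every panel spans the same number of log2 units. The P2 points of Rpl3l, Rpl7l1 and Rpl22l1 lie above all their P1 points, those of Rps27rt lie below, and the others overlap.

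Ribosomal protein genes have many processed pseudogenes, and reads that match several genes could have been divided between them. Of the 83 members, 76 had at least 1 near-identical copy in the annotation, defined as at least 90% identity over at least 80% of the coding sequence. There were 654 copies, with a median of 6 per member and 51 for Rpl21, and 145 of them had a mean of at least 1 FPKM. In 46 members, over 10% of the summed FPKM lay in copies, with 74.9% for Rps27 (almost all of it Rps27rt), 54.1% for Rpl27a and 50.6% for Rps29. Levels of these members are uncertain to that extent. In addition, 38 members shared exonic bases with another gene, 27 of them on the same strand, and the sources used here do not say whether strand was used in counting. Examples are Rpl35 with Wdr38 and Rpl23a with Tlcd1 on opposite strands, and Rpl24 with Gm28037 on the same strand.

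Copies that were high where the member was low are shown for 5 members, chosen after the values were seen. Other members also had a copy that ran against them, as Rpl35a with Gm10247 and Rpl17 with Rpl17-ps5, and many copies did not run against their member. Gm10247 was low throughout, at 1.26 to 4.11 FPKM, where Rpl35a was at 93.7 to 195.6 FPKM. Rps2, a small subunit protein near the mRNA entry, was at 204, 206 and 292 FPKM in P1 and 299, 325 and 312 FPKM in P2, while its X-linked copy Rps2-ps13 (99.2% identical) was at 65.1, 65.6 and 34.4 FPKM in P1 and 34.3, 39.6 and 35.7 FPKM in P2. P1 replicate 3 thus had the P2 pattern in both. Other copies of Rps2 ran with it, as Gm12366, at 12.5, 14.6 and 18.1 FPKM in P1 and 17.1, 17.2 and 15.8 FPKM in P2. The log2 change of Rps2 was 0.43 ± 0.14 with no overlap between the ages (adjusted p = 0.208 in limma with Benjamini-Hochberg adjustment), and with Rps2 and its copies summed it was 0.27 (limma, adjusted p = 0.194). Without P1 replicate 3, Rps2 had a log2 change of 0.60 and passed the threshold (limma, adjusted p = 0.0412), and it was the only member that did so in a fit with a library left out. Rps2 and Rpl3l lie on the same strand of chromosome 17, with 5890 bases between the end of Rps2 and the start of Rpl3l. Whether another gene lies between them was not looked at.

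For Rps26, Rps24 and Rps3a1 the libraries divided without regard to age. Rps26, mutated in some human families with Diamond-Blackfan anaemia, was at 499, 414 and 443 FPKM in P1 and 426, 569 and 568 FPKM in P2, and Rps26-ps1 at 32.0, 131 and 138 FPKM in P1 and 129, 30.5 and 26.1 FPKM in P2. Rps24 was at 609.8, 443 and 663 FPKM in P1 and 499, 628 and 634 FPKM in P2, and Rps24-ps3 at 41.8, 159 and 41.5 FPKM in P1 and 91.3, 39.8 and 37.7 FPKM in P2. Each library with a low parent had the high copy. Rps3a1 was low in P1 replicate 3 and P2 replicate 1, at 232 and 209.8 FPKM, where Rps3a3 was at 69.5 and 65.7 FPKM, against 16.4 to 19.4 FPKM in the other libraries. Rps19 was at 178, 190.3 and 181 FPKM in P1 and 214, 168 and 218 FPKM in P2, and Rps19-ps6 at 26.8, 27.2 and 26.3 FPKM in P1 and 7.49, 12.8 and 8.59 FPKM in P2, so the copy was lower in every P2 library and the member higher in 2 of the 3. Summed with copies, the log2 changes of Rps26, Rps24, Rps3a1 and Rps19 were 0.08, -0.02, -0.03 and -0.01, compared with 0.20, 0.05, -0.04 and 0.12 for the members alone. Rpl35a was at 195.6 FPKM in P2 replicate 2 and at 93.7 to 118 FPKM in the other libraries, and its log2 change of 0.21 ± 0.27 became -0.10 without that replicate. With Rps2, Rps24 and Rpl3l it was 1 of the 4 members whose highest library exceeded the lowest by more than 1.4 times.

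**Figure D4:**
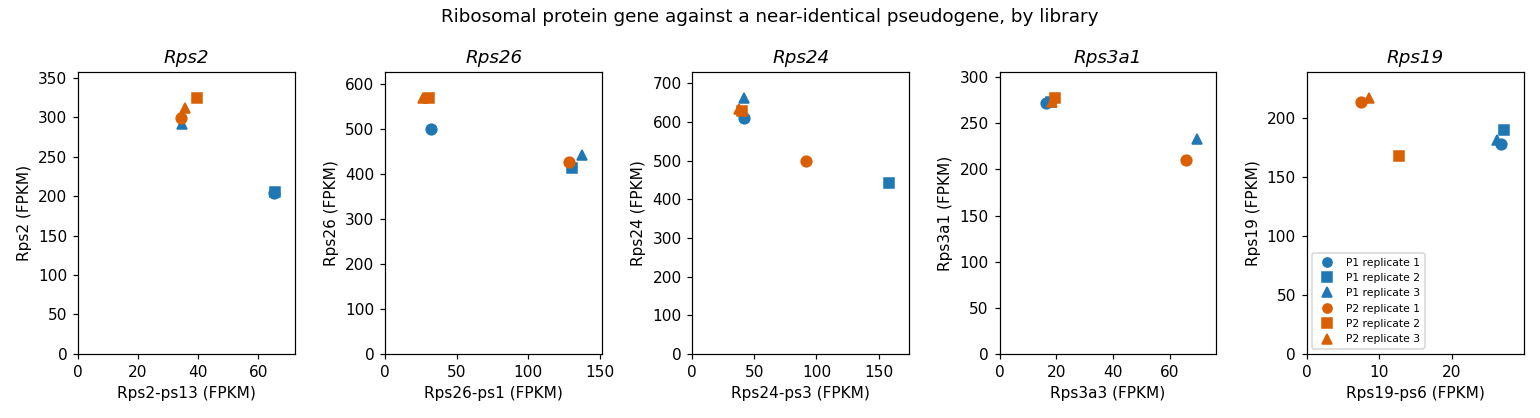
Level of 5 ribosomal protein genes against that of a near-identical pseudogene in each library, both in FPKM, with P1 in blue, P2 in orange and symbols for replicates. Rps26, Rps24 and Rps3a1 fall into high-parent and low-parent libraries that mix the ages, while for Rps2 the P1 replicate 3 point lies among the P2 points and for Rps19 the copy is lower in every P2 library.

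The remaining ribosomal proteins and the machinery that makes and uses ribosomes were described from lists. Of the 110 tested genes in these lists, 0 had an adjusted p under 0.05 (limma, Benjamini-Hochberg; 0.161% of all genes did), and at an unadjusted p under 0.05 there were 16 lower (7.89% of all genes were) and 6 higher (10.7% of all genes were). Of the 5 ribosomal protein genes outside the symbol rule, 3 had lower estimates, with a median log2 change of -0.04. They included Fau, a fusion of a ubiquitin-like protein and Rps30, with a log2 change of -0.09 ± 0.05. Of 17 translation factors and other genes with TOP mRNAs, 12 were lower, with a median of -0.03. Eif4b, a helper of the cap-binding helicase, was at 61.0, 67.1 and 65.4 FPKM in P1 and 54.6, 56.1 and 55.1 FPKM in P2, with no overlap and a log2 change of -0.22 ± 0.04 (limma, adjusted p = 0.124). Eef2, the translocase of elongation, had a log2 change of -0.10 ± 0.04, and Eef2k, the kinase that inactivates it, one of -0.37 ± 0.05, with 13.5, 14.6 and 13.6 FPKM in P1 and 10.9, 9.87 and 10.8 FPKM in P2 (limma, adjusted p = 0.0902 for Eef2k). In the same list of 4 elongation genes, Eef1e1 had a log2 change of 0.25 ± 0.09, and 3 of the 4 were higher.

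Genes of ribosome assembly were divided. Of 21 tested small subunit assembly genes, 10 were higher and 11 lower, with a median of -0.002. Wdr75 and Pno1, which act in pre-rRNA processing, had the smallest p-values, with log2 changes of 0.16 ± 0.05 and 0.16 ± 0.07 that came to -0.002 and -0.006 with equal FPKM sums. Of 26 large subunit assembly and snoRNP genes, 9 were higher and 17 lower, with a median of -0.02. Mybbp1a, a nucleolar partner of RNA polymerase I, and Gar1, a protein of the pseudouridylation complex, had log2 changes of -0.23 ± 0.05 and -0.21 ± 0.05 (limma, adjusted p = 0.121 and 0.140), each with no overlap between the ages. Of 14 genes for RNA polymerase I and its regulators, 9 were lower, with a median of -0.03. Myc, a transcription factor that drives ribosome production, was at 6.78, 7.41 and 6.67 FPKM in P1 and 4.39, 5.10 and 5.44 FPKM in P2, and it had an estimated log2 change of -0.41 ± 0.08 (limma, adjusted p = 0.119). Tcof1, needed for transcription of ribosomal DNA, had a log2 change of -0.19 ± 0.04.

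Genes of mTORC1 control had 8 higher and 9 lower estimates among 17, with a median of -0.01. Ddit4, a stress-induced inhibitor of mTORC1, was at 10.1, 11.8 and 14.5 FPKM in P1 and 15.5, 16.4 and 19.2 FPKM in P2, and it had an estimated log2 change of 0.46 ± 0.14 (limma, adjusted p = 0.177). Rps6kb2, an S6 kinase, had a log2 change of -0.20 ± 0.05. Host genes of small nucleolar RNAs, which are non-coding members of the TOP class, were all lower in estimate: 6 of 6 tested, with a median log2 change of -0.26. Zfas1 was at 40.7, 45.0 and 39.4 FPKM in P1 and 28.93, 28.9 and 30.9 FPKM in P2, and it had an estimated log2 change of -0.48 ± 0.06 (limma, adjusted p = 0.0662), and its adjusted p over the alternatives ranged from 0.0169 to 0.223. Snhg3 was at 26.5, 30.3 and 31.5 FPKM in P1 and 21.4, 24.6 and 25.2 FPKM in P2, with no overlap, and its log2 change was -0.30 ± 0.09. Gas5, the most abundant host gene of the list, was at 126 ± 9.61 FPKM in P1 and 124 ± 4.26 FPKM in P2.

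**Figure D5:**
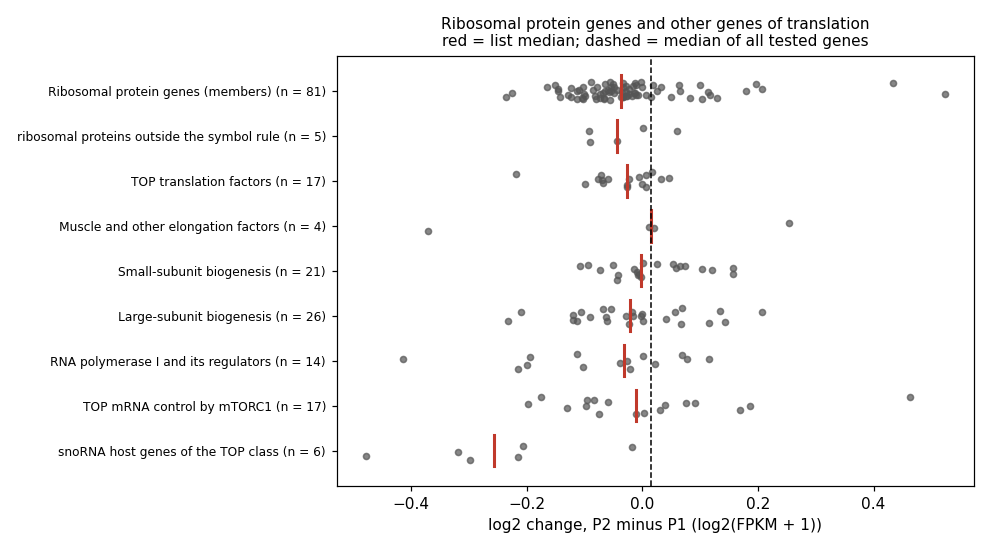
Change in log2 units from P1 to P2 of every tested gene in the ribosomal protein group and in 8 lists of translation and ribosome assembly genes, on log2(FPKM + 1). Each point is a gene, the red mark is the median of the list and the dashed line the median of all tested genes (0.01). The host genes of small nucleolar RNAs have the lowest median (-0.26), and the other lists have medians between -0.04 and 0.02.

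Summed markers of other cell types differed between the ages without overlap for the erythroid, atrial, endothelial, skeletal muscle and male germ cell lists. They overlapped for the fibroblast, smooth muscle and pericyte, macrophage, lymphocyte and cycling cell lists. The skeletal muscle sums were low, at 0.989 to 1.199 FPKM in P1 and 0.595 to 0.826 FPKM in P2. Male germ cell sums were near 0, at 0.039 to 0.084 FPKM in P1 and 0.161 to 0.313 FPKM in P2. The erythroid list summed to 955 to 1353 FPKM in P1 and to 751 to 949 FPKM in P2, with all 4 tested genes lower in estimate and a median log2 change of -0.32. Atrial markers summed to 944 to 1494 FPKM in P1 and to 540 to 769.6 FPKM in P2, with 4 of 4 lower. Endothelial markers summed to 199 to 218 FPKM in P1 and to 229 to 237 FPKM in P2, with 4 of 4 higher, and markers of cycling cells were also 4 of 4 higher, with sums that overlapped, 133 to 160 FPKM in P1 and 151 to 175 FPKM in P2. The part of these cell types in the values of the ribosomal protein genes was not tested.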

How the data were processed

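The deposited table holds 1 FPKM value per gene and library. Per the submitters' processing notes, TopHat2, Cuffdiff 2.2.1 and R 3.2 were used, and the FPKM values were used as the authors deposited them. The sources used here do not give the genome build, annotation, strand setting or treatment of reads matching several genes. Ensembl ids were joined to GENCODE M21 (GRCm38): 37691 matched and 1480 did not. No column belonged to a sample outside the series.

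The members, lists and named genes were chosen with earlier results of these data known. Genes averaging 1 FPKM or more were tested as log2(FPKM + 1) with limma 3.58.1 in R 4.3.3 (moderated variances with trend, 2-sided, age as the only term, Benjamini-Hochberg, called under 0.05). The fitting procedure was also run on simulated data with independent errors and planted changes. That simulation held no shift of whole libraries and no read sharing between genes and copies, so it does not bear on either. Paralog ratios were compared by exact permutation over libraries. Named were both genes of each pair, the 5 highest and 5 lowest members, the 5 smallest p-values per direction, the stalk genes with Rpsa, and per list the 2 smallest p-values; 1 gene so chosen is not reported here or drawn by name. Copies were found with BLAST 2.17.0, and sequences were read from GENCODE transcripts and RefSeq promoters. Groups were P1 and P2 as labelled. Alternatives were another pseudocount, filter, scaling, variance prior or threshold, a replicate block, and leaving out each library. Fits without genes listed at 0 in any library and with copies summed were added after seeing the data. With FPKM alone, no depth, count model or interval for counting error was possible.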

Additional observations from a re-analysis of the deposited data

How the results depend on the processing

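No ribosomal protein gene was called in the deposited scale under another pseudocount, filter, variance prior or threshold, with median ratio scaling or quantile normalization, without genes listed at 0, or with copies summed. Equal FPKM sums gave 39 called members, a median log2 change of -0.21 and mean median levels of 289.15 FPKM in P1 and 249.85 FPKM in P2. Leaving out 1 library gave 0 to 1 called members (Rps2, without P1 replicate 3) and medians from -0.06 to -0.03. The number of members lower in P2 ran from 53 (without P2 replicate 1) to 69 (quantile normalization) on scales other than equal sums, where it was 76. Calls over all genes, 22, came to 5 to 25 without 1 library, 40 with a pseudocount of 0.1, 41 with a filter of 5 FPKM, 111 without genes listed at 0 in any library and 2433 with equal sums. The cause of these differences was not tested.

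Same-numbered P1 and P2 libraries had correlations of -0.01, 0.10 and 0.009 in their deviations from the group means. Other pairings ran from -0.08 to 0.07. With 3 libraries per age these values cannot decide whether same-numbered libraries shared a litter, day or batch. With the replicate block, 0 members and 5 genes in all were called, the median of the members stayed at -0.04, and the ratio of Rpl3l to Rpl3 differed by 0.56 (exact p = 0.25, the smallest 3 pairs allow).

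The log2 ratio of Rps27l to Rps27 turned sign without P1 replicate 1 (0.0064) and without P2 replicate 1 (0.0245), over a leave-one-out range of -0.0816 to 0.0245. Over 54 single genes recomputed, 27 values reversed. Equal FPKM sums reversed Pno1 (-0.0060), Wdr75 (-0.0016), Rpl22l1 (-0.0403), Rpl36al (-0.1111), Rpl5 (-0.1523), Rpl7l1 (-0.0808), Rps19 (-0.0546), Rps24 (-0.1226), Rps29 (-0.0689), Rps4l (-0.1186) and Rpsa (-0.1083). Quantile normalization reversed Rplp1 (-0.0370), Rpl5 (-0.0010) and Rps24 (-0.0047), and summing copies reversed Rps19 (-0.0120) and Rps24 (-0.0232). Leave-one-out ranges that crossed 0 were -0.0330 to 0.0248 for Rpl10, -0.1012 to 0.4260 for Rpl35a, -0.0119 to 0.0515 for Rpl5, -0.1247 to 0.1655 for Rps24, -0.1134 to 0.0932 for Rps3a1 and -0.0275 to 0.1301 for Rps4l. A further 37 values passed the threshold only under an alternative, most of them under equal sums, and 799 kept direction and side. FPKM without counts sets the main limit: low genes such as Rpl3l and Rpl39l carry an unknown counting error, and how reads were divided between members and their copies is not known.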
